A study of Takifugu rubripes with 9 samples.

Results

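miR-129 is a microRNA (miRNA) whose reads came mostly from brain in 8 torafugu (*Takifugu rubripes*) small RNA libraries, with 86.3% of them in the brain library. Its members were the annotated sequences that the deposited counts name mir-129, with or without a letter, under any species and any kind of match. They comprised 3 names (mir-129, mir-129a and mir-129b) of 377, 50 distinct sequences of 8194, and 39746 reads of 5232809. The name mir-129 itself held 40 sequences and 99.8% of the family's reads, mir-129b 9 sequences and 75 reads, and mir-129a 1 sequence and 1 read. miR-129 was chosen by its RPM in brain relative to the other tissues, so its levels and its ratios between brain and the other tissues are given as a description and were not tested.

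The study profiled miRNAs in tissues of adult, wild-type fish by SOLiD sequencing. Brain was compared here with eye, slow muscle, heart, liver, intestine, ovaries and testes, each with 1 library, and fast muscle was not analysed here. Tissues were dissected from a pair of adult fish, and whether a library pooled them was not stated in the sources used here. With 1 library per tissue no value has a replicate error, and every interval covers the counting error of reads alone. Copies made in amplification were counted as separate reads, which the intervals do not allow for.

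A miRNA is cut from a hairpin precursor whose arms give a 5p and a 3p product, and a product finds its targets mainly through its seed sequence, bases 2 to 8 from its 5′ end. A shift of the 5′ end therefore changes the seed, whereas a change at the 3′ end leaves it as it was. miR-129 is a conserved vertebrate miRNA known for its high level in brain. In rat neurons miR-129-5p represses a voltage-gated potassium channel and takes part in the downscaling of synapses, and in human cells miR-129-3p promotes the assembly of primary cilia by repressing a protein that caps centrioles.

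The sequences below carry the results. They are written 5′ to 3′ as deposited, with T for U and the seed in capitals. The first set holds the most abundant products of each arm, which differ at the 3′ end only.
miR-129-3p, 22 nt: aAGCCCTTaccccaaaaagcat
miR-129-3p, 21 nt: aAGCCCTTaccccaaaaagca
miR-129-3p, 20 nt: aAGCCCTTaccccaaaaagc
miR-129-5p, 21 nt: cTTTTTGCggtctgggcttgc
miR-129-5p, 22 nt: cTTTTTGCggtctgggcttgct

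The second set holds the most abundant 3p sequences with a shifted 5′ start, 1 nt upstream and 1 nt downstream of the common start, which have other seeds.
miR-129-3p, start −1, 22 nt: gAAGCCCTtaccccaaaaagca
miR-129-3p, start +1, 21 nt: aGCCCTTAccccaaaaagcat

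The third is the 3p sequence that the files give to the second gene copy, mir-129-2. It differs from the 22 nt form of mir-129-1 by C20T, counted from 1 at the 5′ end.
miR-129-3p of mir-129-2, 22 nt: aAGCCCTTaccccaaaaagtat

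In RefSeq's annotation of the assembly fTakRub1.2, mir129-1 lies within the range of the protein-coding gene LOC115251078, between hsd17b12a and api5, and mir129-2 lies between prrt4b and snd1. The files give no coordinates, and their genome build was not matched to that assembly. None of the 4 seeds (common 3p start, common 5p start, and the 3p starts at −1 and +1) was the seed of the most abundant sequence of any other arm name: 0 of 624 names shared them.

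The libraries held 1204477 (liver) to 4760693 (ovaries) reads of 18–25 nt, as totalled by the study, and 929645 of the 2664163 brain reads were annotated. The annotated part was 33.1% to 37.7% of the library in the 6 somatic tissues, 11.3% in ovaries and 2.58% in testes. It includes precursor-only reads, matched to a hairpin but to no mature entry. The miRNA shares that the paper gives under its stringent criteria, which are set relative to mature miRNAs, are lower in each of these tissues. The brain label was checked with miR-124, miR-9, miR-128 and miR-137, all known from neurons or neural progenitors. Their reads summed to 100528 RPM (reads per 1000000 reads of 18–25 nt) in brain, 113833 RPM in eye and 33.6 to 970 RPM in the other 6 libraries. In brain miR-137 reached 928 RPM, against 13.0 RPM in eye. miR-122, the hepatocyte miRNA, had 7 reads in brain, and miR-202, the gonad marker, had 3. Other markers had more reads there. The erythrocyte miRNAs miR-144 and miR-451 summed to 7543 RPM in brain, and the eye markers miR-204, miR-183, miR-96 and miR-182 to 3095 RPM. Those of intestine (miR-192, miR-194 and miR-200) summed to 1058 RPM, and those of muscle (miR-1, miR-133, miR-206 and miR-499) to 940 RPM.

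Reads of miR-129 were most frequent in brain, with 34312 reads and 12879 RPM (95% Wilson interval 12744 to 13015). They made up 3.69% of the annotated brain reads. Eye followed with 3726 reads and 2685 RPM (2601 to 2773), and slow muscle with 1053 reads and 547 RPM (515 to 581). Liver had 178 reads and 148 RPM (128 to 171), and heart 303 reads and 120 RPM (107 to 134). In intestine, testes and ovaries the levels were 22.8 RPM (78 reads), 19.9 RPM (42 reads) and 11.3 RPM (54 reads). Every library therefore had reads above the limit of 3 reads taken as the smallest detectable value, and brain alone held 78.4% of the RPM summed over the libraries. That limit does not cover reads carried over from another library or tissue, and such carry-over was not tested. For comparison, miR-122 had 67138 reads in liver, 370 in intestine, 55 in ovaries, 48 in slow muscle and 0 in testes. In bulk tissue, fewer cells of a type and less RNA per cell cannot be told apart.

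**Figure D1:**
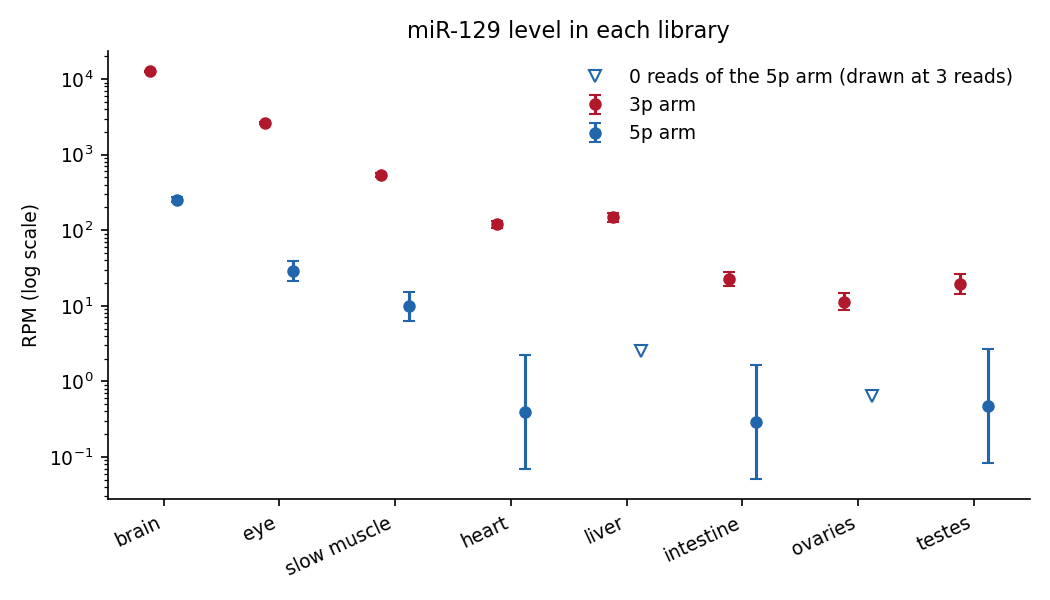
Level of the 3p arm (red) and 5p arm (blue) of miR-129 in RPM, on a log axis, in each of the 8 libraries. Points are the level in 1 library, bars are 95% Wilson intervals, and open triangles mark libraries with 0 reads of the 5p arm, drawn at the RPM of 3 reads. Both arms were highest in brain, at 12625 RPM for 3p and 253 RPM for 5p, and next in eye and slow muscle.

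Between brain and the next library, eye, the ratio was 4.80 (exact 95% interval 4.64 to 4.96). It was 23.5 (22.1 to 25.1) over slow muscle, 87.1 (75.2 to 102) over liver and 107 (95.7 to 120) over heart. The ratios were widest over the remaining tissues, at 564 (452 to 714) over intestine, 648 (480 to 900) over testes and 1135 (870 to 1512) over ovaries. With annotated reads in place of all 18–25 nt reads as the library size, brain exceeded testes 47.9-fold and ovaries 367-fold, and testes moved above liver and heart in the order of levels. Further down the order, liver exceeded heart by 1.23 (1.02 to 1.48), and intestine and testes could not be told apart at this depth, with a ratio of 1.15 (0.780 to 1.71). Testes exceeded ovaries by 1.75 (1.14 to 2.67).

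All 3 miR-129 names that had at least 10 reads over the pair of libraries (counted with arm and match class) were at least 2-fold higher in brain in each of the 7 comparisons. Of all names tested, 45.8% were at least 2-fold higher in brain than in eye, 43.1% than in slow muscle, 41.1% than in heart, 42.7% than in liver, 43.6% than in intestine, 74.4% than in ovaries and 91.1% than in testes. Since the levels chose miR-129, nothing is read from these counts.

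Among the 475 arm names with reads in brain, miR-129-3p ranked 4th, at 12625 RPM. Above it stood miR-124-3p, miR-100-5p and miR-125b-5p, at 61669, 25752 and 17295 RPM, and just below it miR-338-3p, an oligodendrocyte-linked miRNA, at 12476 RPM. Precursor-only reads were placed on an arm for miR-129 alone, and those of other miRNAs were kept as names of their own. The ranks of miR-129-3p therefore set unlike counts side by side. In eye miR-129-3p ranked 23rd of 411 names, and in slow muscle 59th of 425. The index tau, which is 0 for a level shared evenly by all tissues and 1 for a level confined to a single tissue, was 0.961 for miR-129, 0.960 for its 3p arm and 0.978 for its 5p arm. On log2(RPM + 1) it was 0.506 for the family.

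Each arm was then followed apart. In brain the 3p arm had 33636 reads and the 5p arm 675, or 49.8 reads of 3p for each read of 5p. The 3p share of arm reads was 98.0% (97.9 to 98.2) in brain and 98.9% (98.5 to 99.2) in eye, a difference of −0.894 percentage points (Newcombe interval −1.22 to −0.484). The 5p product thus held a larger share of miR-129 reads in the brain library than in the eye library, 1.97% against 1.07%. In heart, with 302 reads of 3p and 1 of 5p, the difference was −1.64 points (−1.95 to −0.115). In slow muscle the 3p share was 98.2%, and the difference of −0.163 points (−0.827 to 0.844) could not be resolved at this depth. The intervals for liver, intestine and ovaries also included 0. With 1 library each, these are differences between libraries.

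The 5p arm had 675 reads in brain, 40 in eye and 19 in slow muscle, 1 read each in heart, intestine and testes, and 0 in liver and ovaries. It passed the limit of 3 reads in brain, eye and slow muscle. The 5p level in brain, 253 RPM, was 8.79 times that in eye (6.39 to 12.4) and 25.7 times that in slow muscle (16.3 to 42.9). Against the 3 reads taken as the limit in each library, it was at least 102-fold higher than in liver and at least 402-fold higher than in ovaries, and the exact 95% lower limits of these ratios were 82.5 and 326.

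The 3p arm was recorded in the files almost wholly as precursor-only reads, that is, reads matched to the hairpin but to no mature entry. In brain 33628 of the 33636 reads of the 3p arm were of this kind, since the torafugu matches to a mature miR-129 were all to the 5p arm. The other 8 reads were matched to 3p entries of *Mus musculus*, *Anolis carolinensis* and *Petromyzon marinus*. Over both arms, 98.0% (97.9 to 98.2) of the brain reads of miR-129 were precursor-only, against a median of 0.555% over the 83 names with at least 1000 reads in brain. Of these names, 2 were at least 90% precursor-only, miR-129 being 1 of them. In brain miR-129 ranked 1st by precursor-only reads, with 46.8% of all 71900 such reads, and in eye it ranked 4th, with 9.54% of 38622. Counted by mature matches alone, miR-129 had 683 reads in brain, and those gave 256 RPM.

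Within the 3p arm, 38 distinct sequences were read in brain, and 3 of them, each with at least 1% of the arm's reads, held 96.2% of these. The major sequence was the 22 nt form, with 17831 reads in brain, 2977 in eye, 649 in slow muscle, 257 in heart, 85 in liver, 46 in intestine, 37 in ovaries and 27 in testes. The 21 nt form, which lacks the last base, had 14043 reads in brain, 634 in eye, 316 in slow muscle, 39 in heart, 81 in liver, 21 in intestine, 14 in ovaries and 11 in testes. The 22 nt form had more reads than the 21 nt form in every library, by the smallest ratio in liver (85 against 81 reads) and the next smallest in brain. The 20 nt form made up 1.45% (1.33 to 1.58) of the brain 3p reads, against 0.407% (0.247 to 0.670) in eye.

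Of the reads of the 22 nt and 21 nt forms together, the 22 nt form held 55.9% (55.4 to 56.5) in brain and 82.4% (81.2 to 83.6) in eye, a difference of −26.5 points (−27.8 to −25.1). Heart was further from brain, with 86.8% (82.5 to 90.2) and a difference of −30.9 points (−34.3 to −26.5). Slow muscle lay between, with 67.3% (64.2 to 70.1), a difference of −11.3 points (−14.3 to −8.24). The share was 68.7% in intestine and 72.5% in ovaries, where the differences of −12.7 points (−22.6 to −0.841) and −16.6 points (−27.0 to −3.10) rested on few reads. Liver, with 51.2% (43.7 to 58.7), could not be told apart from brain (4.74 points, −2.77 to 12.3). In testes 27 of 38 reads were of the 22 nt form.

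**Figure D2:**
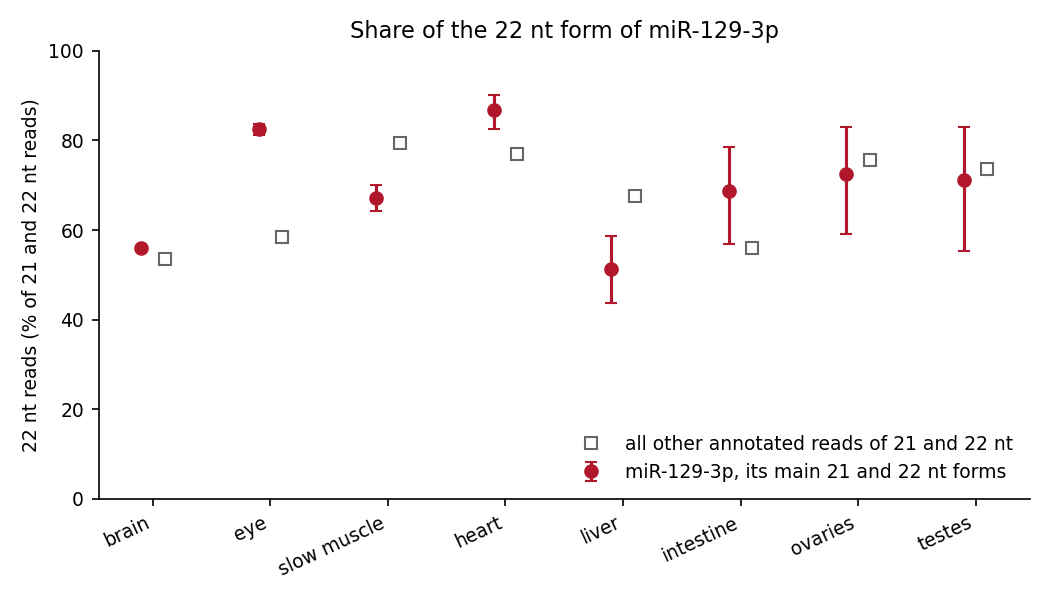
Share of the 22 nt form among reads of the main 21 nt and 22 nt forms of miR-129-3p (red, with 95% Wilson intervals) and share of 22 nt reads among all other annotated reads of 21 and 22 nt (grey squares), in percent, in each library. The miR-129-3p share was 55.9% in brain and 82.4% in eye, where the other reads stood at 53.5% and 58.4%.

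The lengths of other miRNAs differed between libraries as well. Among all other annotated reads of 21 and 22 nt, 53.5% were 22 nt in brain, against 58.4% in eye, 77.1% in heart, 79.4% in slow muscle and 67.5% in liver. Brain minus eye, these other reads differed by −4.88 points, fewer than the −26.5 points of the main miR-129-3p forms, and brain minus heart by −23.5 points, against −30.9. For slow muscle the order was the other way, with −25.8 points for the other reads and −11.3 for miR-129-3p. For intestine and ovaries the other reads differed by −2.48 and −22.0 points, against −12.7 and −16.6, and for liver by −14.0 points, against 4.74. Arm by arm, 123 names had at least 50 reads of 21 and 22 nt in brain and in eye, and their difference in 22 nt share, brain minus eye, had a median of −1.55 points and quartiles of −4.47 and 1.82. That of miR-129-3p, −26.2 points over all of its 21 and 22 nt reads, was the 2nd lowest, next to the precursor-only reads of miR-22b, which had 66 reads in brain. At the other end, miR-222-3p, miR-9-5p and miR-148-3p had differences of 49.0, 22.9 and 21.8 points. The part that trimming of reads had in these lengths was not tested.

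The 5′ start of miR-129-3p was placed relative to the 22 nt form. In brain 32949 reads, or 98.0% (97.8 to 98.1), began at the common start, 410 reads (1.22%, 1.11 to 1.34) began 1 nt downstream and 254 reads (0.755%, 0.668 to 0.853) began 1 nt upstream. Starts further away were rare, with 11 reads at −2, 10 at +3 and 2 at +5. The common start was thus kept by nearly all brain reads, and the seed with it. In eye 99.1% of the 3p reads began at the common start, and the share in brain was lower by a small amount, −1.15 points (−1.45 to −0.759). Both shifted starts were more frequent in brain than in eye, by 0.457 points (0.206 to 0.621) for −1 and by 0.622 points (0.297 to 0.859) for +1.

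The upstream start was more frequent in slow muscle than in brain or eye. In slow muscle 40 of 1034 reads of the 3p arm, or 3.87% (2.85 to 5.22), began at −1, and the difference from brain was −3.11 points (−4.47 to −2.09). The downstream start did not separate them, with 1.22% in brain and 1.16% in slow muscle, a difference of 0.0584 points (−0.806 to 0.569). The intervals of the upstream start in liver (2 of 178 reads), intestine (0 of 77) and ovaries (0 of 54) overlapped that of slow muscle. Of the 40 reads, 35 were the 22 nt sequence with start −1 printed above, which had 216 reads in brain and 11 in eye.

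**Figure D3:**
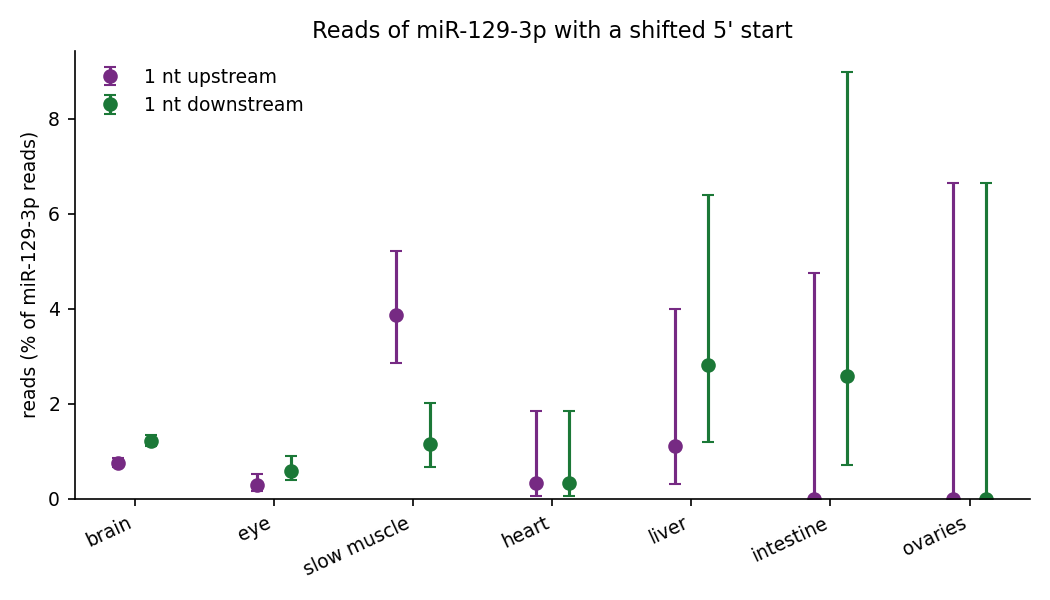
Share of miR-129-3p reads, in percent, whose 5′ start lay 1 nt upstream (purple) or 1 nt downstream (green) of the common start, in the 7 libraries with at least 50 reads of the arm. Points are shares in 1 library and bars are 95% Wilson intervals. The upstream start reached 3.87% in slow muscle, against 0.755% in brain and 0.298% in eye.

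The 3′ ends of the brain reads differed with the 5′ start. Among reads that began at −1, 85.4% were 22 nt long and so ended 1 nt before the end of the major sequence. At the common start, 54.3% of the reads were 22 nt and 42.6% were 21 nt. Among reads that began at +1, 64.6% were 21 nt and ended where the major sequence ends, and 25.9% ended 1 nt beyond it, an end that only 0.801% of the reads with the common start had. Lengths of 21 and 22 nt together held 92.1%, 96.9% and 90.5% of the reads that began at −1, at the common start and at +1. In slow muscle 36 of the 40 reads with start −1 were likewise 22 nt.

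**Figure D4:**
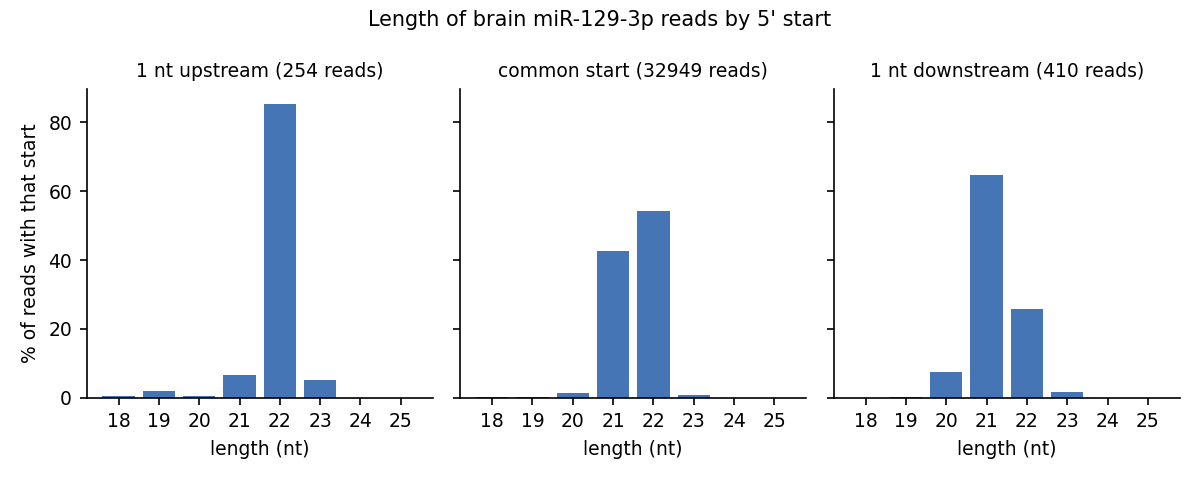
Lengths, in nt, of miR-129-3p reads in the brain library for reads that began 1 nt upstream of the common start (254 reads), at it (32949 reads) and 1 nt downstream of it (410 reads). Bars give the percent of the reads with that start. The upstream reads were mostly 22 nt (85.4%), the reads at the common start were split between 22 nt (54.3%) and 21 nt (42.6%), and the downstream reads were mostly 21 nt (64.6%).

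The 5p arm was more uniform at its 5′ end: 99.9% of its 675 brain reads began at a single start, with 1 read elsewhere. Its 3′ end varied, and 5 sequences held 98.8% of the brain reads. The 21 nt form had 411 reads in brain, or 60.9% (57.2 to 64.5) of the arm, and 31 of 40 in eye. The 22 nt form, identical to the torafugu mature entry, had 192 reads in brain, or 28.4% (25.2 to 32.0), and 5 of 40 in eye. The major 5p sequence was therefore 1 nt shorter than the entry. The 20, 19 and 18 nt forms had 28, 12 and 24 reads in brain.

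Reads of the gene copies could be told apart at the 3p arm, where long enough sequences include the base that differs. In brain 33311 reads were matched to mir-129-1 alone and 67 to mir-129-2 alone, a mir-129-2 share of 0.201% (0.158 to 0.255), while 189 shorter reads matched both. In eye the reads numbered 3679 for mir-129-1, 2 for mir-129-2 and 3 for both. In ovaries 1 of 53 such reads was of mir-129-2. The other 5 libraries had 0 reads of mir-129-2, which, at 3 reads of the total, allows a share of up to 0.292% in slow muscle and up to 7.50% in testes (upper Wilson limits 0.372% and 8.76%). The 5p sequences were given to both copies, so their source could not be divided. Because so few reads were of mir-129-2, sequencing errors at that base were not separated from expression of this copy.

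The brain miRNAs used to check the label were set beside miR-129. For each 100 reads of miR-124, miR-9, miR-128 and miR-137, miR-129 had 12.8 reads in brain and 2.36 in eye. That difference followed miR-124, which gave most of the marker reads in both libraries: for each 100 reads of miR-124, miR-129 had 16.6 in brain and 2.43 in eye. Set against the other 3 markers, miR-129 was not lower in eye. For each 100 reads of miR-9 it had 90.8 in brain and 107 in eye, and for miR-128 166 and 421. For miR-137 the values were 1388 and 20700, of which the eye value rested on 18 reads of miR-137. For each 100 reads of the 4 markers, heart had 12.4, liver 24.4, intestine 7.63, ovaries 33.8 and testes 46.2. In slow muscle miR-129 outnumbered the markers, with 133 reads for each 100, at 547 RPM of miR-129 against 411 RPM of the markers. All 4 markers were detected in slow muscle. There miR-124 had 288 reads (150 RPM), miR-128 had 492 (256 RPM), miR-9 had 7 (3.64 RPM) and miR-137 had 5 (2.60 RPM). The eye markers (miR-204, miR-183, miR-96 and miR-182) summed to 2145 RPM in slow muscle, against 40116 RPM in eye. In slow muscle the erythrocyte markers summed to 9690 RPM and the intestine markers to 6458 RPM. miR-122 had 24.9 RPM there and miR-202 had 0 reads. The part of other tissues' RNA in the slow muscle level of miR-129 was not tested.

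**Figure D5:**
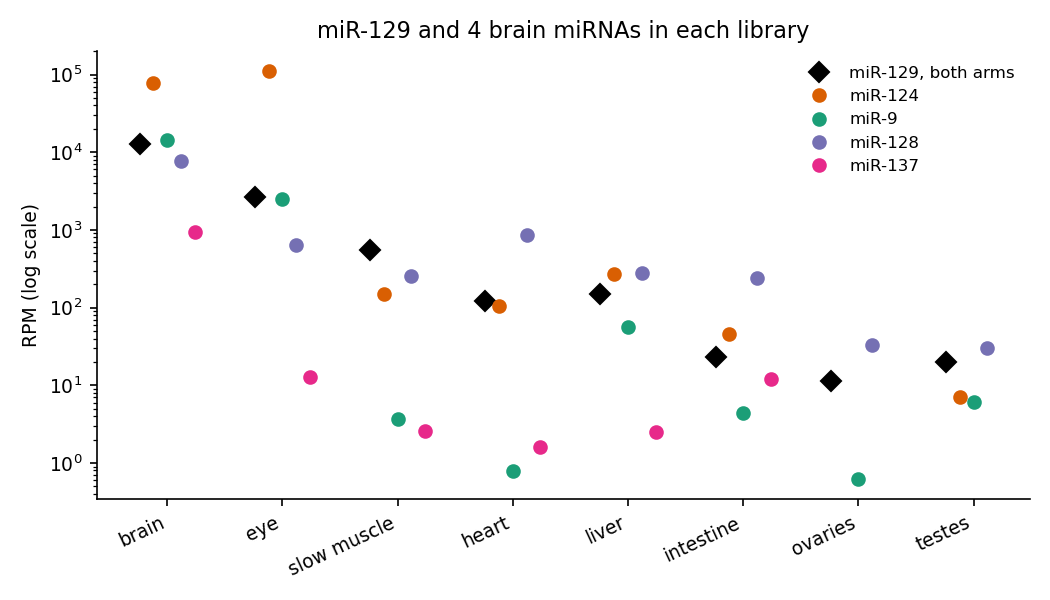
Level in RPM, on a log axis, of miR-129 (both arms, black diamonds) and of 4 brain miRNAs in each library; a miRNA with 0 reads in a library has no point. In brain miR-129 (12879 RPM) stood near miR-9 (14190 RPM), whereas in slow muscle miR-129 (547 RPM) stood far above miR-9 (3.64 RPM).

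The names whose spread over the libraries was most like that of all miR-129 reads were found by the overlap of RPM shares, which is 1 for identical profiles. The miR-129 profile included its precursor-only reads, whereas those of other miRNAs were names of their own, so unlike counts were compared. Among 164 arm names that reached 100 RPM in some library, the closest was miR-727-5p, with an overlap of 0.954. It had 133 RPM in brain, 23.8 RPM in eye and at most 1.66 RPM in the other libraries. miR-9-5p followed with 0.922, at 10927 RPM in brain against 1713 RPM in eye. The next were miR-9-3p (0.898), miR-724-5p (0.881) and miR-34a-5p (0.880), with 88.6%, 89.9% and 72.2% of their summed RPM in brain. Over the 8 libraries Spearman's rho with miR-129 was 0.850 for miR-727-5p, 0.690 for miR-9-5p, 0.791 for miR-9-3p, 0.419 for miR-724-5p and 0.762 for miR-34a-5p, and these values share the libraries and their depth. Of these, only miR-34a-5p also had over 80 RPM in slow muscle (86.8 RPM), whereas miR-9-5p had 0.520 RPM there.

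Other miRNAs known from the nervous system were mostly higher in brain too. Of 52 names from 15 such miRNAs, 41 were at least 2-fold higher in brain than in eye, against the 45.8% given above for all names. At least 2-fold higher in eye were 0 of the 52, for which no share over all names is given here. The median ratio of brain over eye was 11.8 for the 52 names, against 1.74 for all names tested. Over slow muscle 51 of 52 were at least 2-fold higher in brain, against 43.1% of all names, with a median ratio of 142 against 1.32 for all names. At the high end, miR-124-3p, which represses non-neuronal transcripts in neurons, had 61669 RPM in brain and 87327 RPM in eye, and miR-124b-3p 11095 RPM and 17435 RPM. miR-338-3p had 12476 RPM in brain and 2660 RPM in eye, and miR-9-5p, a regulator of neural progenitors, 10927 RPM and 1713 RPM. In slow muscle miR-338-3p still had 6146 RPM. miR-124-3p and miR-124b-3p thus had fewer RPM in brain than in eye, whereas miR-129-3p had 12625 RPM in brain and 2657 RPM in eye.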

How the data were processed

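Small RNA of each tissue was extracted with a mirVana kit and read on a SOLiD sequencer. The authors removed adaptors and low-quality reads, kept 18–25 nt, merged identical reads and searched miRBase with CLC genomics workbench at 0 mismatches. What they deposited for each distinct sequence is its raw read count, not normalized. The files hold the annotated reads only, precursor-only reads included. Precursor-only reads were 98.0% of the brain reads of miR-129 and may lie outside the paper's stringent miRNA set. Other reads that the authors annotated under later, looser criteria were not analysed here. Fast muscle was not analysed here. Repeated header lines inside the tables were skipped.

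Reads were summed by name, arm and match class, and RPM were computed with the 18–25 nt totals given in the study's supplementary data. Precursor-only sequences of miR-129 were placed on the arm that they overlapped (14 nt or more, no more than 2 mismatches), and 1 brain read fitted neither arm. Those of other miRNAs were kept as names of their own. Shares carry 95% Wilson intervals, differences of shares Newcombe intervals, and ratios exact Clopper-Pearson intervals; the limit of detection was set at 3 reads. Shares within an arm were compared with brain where the tissue had at least 50 reads. With 1 library per tissue no test across names was made.

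The members, gene lists and comparisons were chosen with earlier results of these data known. Named are all miR-129 names, their sequences with at least 1% of an arm's brain reads and the most abundant of each name, the 5 arm names with the most similar profile, and up to 4 of the neural list with the highest brain RPM. The sequences at the starts −1 and +1, the 23 nt form, the names ranked above miR-129-3p in brain, miR-22b, miR-222-3p and miR-148-3p were named after their values were seen. Alternatives were other denominators, TMM scaling, mature matches alone, 0 mismatches, a minimum of 20 nt, another fold or read minimum, and a log scale. Intervals of ratios and of differences of shares were tested on simulated counts without amplification copies. Shifts of the 5′ start were recovered from a random sequence without errors. The placement of sequences on an arm was not tested on simulated data. TMM factors were computed with edgeR 4.0.16 in R 4.3.3, and the rest in Python 3.11.15 (matplotlib 3.10.9, scipy 1.17.1, pandas 2.3.3, numpy 2.4.6).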

Additional observations from a re-analysis of the deposited data

How the results depend on the processing

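No paired analysis was possible because each tissue has 1 library. Of 89 values recomputed under an alternative, 51 kept within their interval, side of 0 or 1.5-fold range and 38 moved. A change of direction was scored for differences of shares only, and 0 of those changed direction. The interval of brain minus eye in 3p share stayed on its side of 0 at 0 mismatches, as did brain minus eye and brain minus slow muscle in the common 5′ start with sequences of at least 20 nt, and brain minus eye, slow muscle and heart in 22 nt share over all 21 and 22 nt reads of the arm, an alternative chosen after seeing the data. Sequences of several miRNAs were not among the members, so the 7 ratios recomputed without them could not change.

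With mature matches only, the levels were 256 RPM in brain, 28.8 in eye, 10.4 in slow muscle, 0.397 in heart, 0 in liver, 0.293 in intestine, 0 in ovaries and 0.473 in testes; brain exceeded eye 8.89-fold, heart 646-fold and intestine 876-fold, and the 3p share in brain was 1.17%, because the 3p reads are recorded as precursor-only. Mature matches gave no ratio over liver or ovaries and too few reads for the other tissues' arm shares and for any 3p sequence share. Per 1000000 annotated reads, the levels were 36909 in brain, 8121 in eye, 1453 in slow muscle, 343 in heart, 407 in liver, 64.6 in intestine, 100.4 in ovaries and 770.1 in testes, tau was 0.956, and brain exceeded eye 4.54-fold, slow muscle 25.4-fold, ovaries 367-fold and testes 47.9-fold. Under TMM scaling the ratios were 4.38 over eye, 27.7 over slow muscle, 131 over heart, 122 over liver, 395 over ovaries and 86.4 over testes. The moves with annotated reads follow by definition from the annotated part of each library, such as 34.9% in brain, 11.3% in ovaries and 2.58% in testes. Why that part differed, and the cause of the moves under TMM scaling, were not tested. On log2(RPM + 1) tau was 0.506. With at least 100 reads over the pair of libraries, 101 names were at least 2-fold higher in brain than in eye (160 with at least 10 reads), 101 than in slow muscle (155), 96 than in heart (147), 163 than in ovaries (253) and 181 than in testes (287); at a fold of 4, 93 were higher than in eye.

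Depth limits the arm and start shares in intestine, ovaries and testes, which had 78, 54 and 42 reads of miR-129. Without replicate libraries, differences between tissues cannot be told apart from differences between fish or library preparations.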

Other observations

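A few reads of the family carried names of other species. In brain 61 reads were matched to the mir-129b precursor of *Branchiostoma floridae* and 11 to mature mir-129b of *Anolis carolinensis*, against 2 and 0 in eye. The *Branchiostoma floridae* reads were 4 sequences in brain, of which an 18 nt sequence with the miR-129-3p seed had 55 reads. In brain 3 further reads were matched to *Mus musculus* and 1 to *Petromyzon marinus*. A single brain read of 22 nt, matched to the mir-129-2 precursor, overlapped neither arm.

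The 23 nt form of miR-129-3p, 1 nt longer than the major sequence, had 263 reads in brain, 19 in eye, 7 in slow muscle and 8 in intestine. In intestine those 8 were of the 75 reads with the common start, or 10.7%, against 0.801% of such reads in brain.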
